A study of Rattus norvegicus with 6 samples.

Results

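The smooth muscle contractile genes are the 10 genes Myh11, Acta2, Actg2, Tagln, Cnn1, Lmod1, Smtn, Des, Tpm2 and Synpo2, which were taken from the count tables by their symbols, out of 15388 genes listed. All 10 were present and all passed the filter on low counts, which kept 11738 genes. They were chosen with values of these same libraries in view, both the difference between late pregnancy and the non-pregnant state and the difference between replicate numbers, so their own values are given as a description. Des, Tpm2 and Synpo2 are also expressed in skeletal muscle and are described apart from the other 7.

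Poly(A)-selected RNA was sequenced from whole thyroids of adult Sprague-Dawley rats, with no transgene or drug named for either group. Non-pregnant rats formed the NP group, and rats on day 18 of pregnancy formed the LP group, counted from the vaginal plug as day 1, with 3 libraries in each group. The age of the rats and the estrous stage of the NP group are not given in the sources used here. The tissue was bulk thyroid. A lower value can mean, among other things, fewer smooth muscle cells or less of the RNA in each such cell, and these cannot be told apart.

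Smooth muscle cells line arteries, veins and hollow organs, and the thyroid, which is densely supplied with vessels, holds them mainly in vessel walls. Their contraction is driven by smooth muscle myosin, whose heavy chain is Myh11, pulling on filaments built of the actins Acta2 and Actg2. Calcium and calmodulin switch it on through the myosin light chain kinase Mylk, and the serum response factor Srf with its partner myocardin turns on many of the genes by binding CArG boxes, A/T-rich sites flanked by CC and GG.

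Promoter windows of the members are shown for this reason. Of the 10 genes, 7 had a window of 250 bases before to 50 bases after the start site in RefSeq, on the rat build GRCr8, which is not the build of the counts. Myh11, Tagln and Lmod1 had no entry, and the Actg2 window lies 10340 bases inside the edge of its gene, so it may not be the start site used here. A CArG box was found in 0 of the 7 windows on either strand, against 1.64% of 33469 promoters of the same length. With 1 G or C allowed in the core, a match was found in the Acta2 window alone among the 7, against 9.42% of all promoters. The 3 windows below belong to the vascular actin, to a thin filament regulator and to a gene shared with skeletal muscle, and capitals mark the matches with 1 G or C in the core, which begin 134 and 84 bases upstream of the Acta2 start site. No match in a window says only that these letters are not in it. The Acta2 window is chr1:241172454-241172753 on the minus strand, the Cnn1 window chr8:28908187-28908486 on the plus strand and the Des window chr9:84299376-84299675 on the plus strand.
Acta2: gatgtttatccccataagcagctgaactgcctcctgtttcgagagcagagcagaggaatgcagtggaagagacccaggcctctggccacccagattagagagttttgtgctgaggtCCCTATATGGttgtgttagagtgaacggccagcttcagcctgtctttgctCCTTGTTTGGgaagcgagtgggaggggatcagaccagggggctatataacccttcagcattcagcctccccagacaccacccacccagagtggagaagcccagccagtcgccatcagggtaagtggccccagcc
Cnn1: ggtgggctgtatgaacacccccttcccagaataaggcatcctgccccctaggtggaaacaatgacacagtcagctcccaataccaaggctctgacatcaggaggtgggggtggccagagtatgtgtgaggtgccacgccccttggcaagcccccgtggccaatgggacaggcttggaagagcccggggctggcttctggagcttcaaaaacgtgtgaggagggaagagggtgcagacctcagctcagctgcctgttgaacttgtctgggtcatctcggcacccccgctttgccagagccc
Des: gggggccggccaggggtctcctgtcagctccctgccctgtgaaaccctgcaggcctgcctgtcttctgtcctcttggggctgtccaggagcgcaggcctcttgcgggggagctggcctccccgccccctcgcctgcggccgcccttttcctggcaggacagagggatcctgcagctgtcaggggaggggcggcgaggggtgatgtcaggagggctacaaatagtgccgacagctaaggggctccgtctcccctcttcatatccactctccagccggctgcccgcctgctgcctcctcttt

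The libraries held 2752144 to 3449857 counted reads, so that 3 reads corresponded to 0.893 to 1.08 CPM, read counts brought to one common library size by TMM scaling. That limit covers counting error only. Replicates 2 and 3 of the NP group differed by no more than sampling noise in a chi-square test over genes (1.02 per degree of freedom), and so did replicates 2 and 3 of the LP group (0.995), while replicate 1 differed from them in both groups (3.70 to 4.11). Replicates 2 and 3 were therefore averaged and counted as 1 sample, which leaves n = 2 per group for each SD. Thyroglobulin (Tg), which marks follicular cells, took 22.9% to 24.5% of the reads in each library. The members took 0.0303% of the reads in NP replicate 1 against 0.235% and 0.225% in NP replicates 2 and 3, and 0.125% in LP replicate 1 against 0.314% and 0.300% in LP replicates 2 and 3.

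The 7 genes not shared with skeletal muscle did not separate LP from NP, but every one was lower in replicate 1 than in replicates 2 and 3 of its own group. Summed over the 7 genes, the level was 268 CPM in NP replicate 1 and 206 CPM in LP replicate 1. In replicates 2 and 3 it was 1920 and 1834 CPM in NP and 1895 and 1779 CPM in LP. Des, Tpm2 and Synpo2 differed from this pattern, since every LP library lay above every NP library. Their summed level was 31.2, 367 and 360 CPM in NP replicates 1, 2 and 3, and 1087, 1331 and 1306 CPM in LP replicates 1, 2 and 3.

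**Figure D1:**
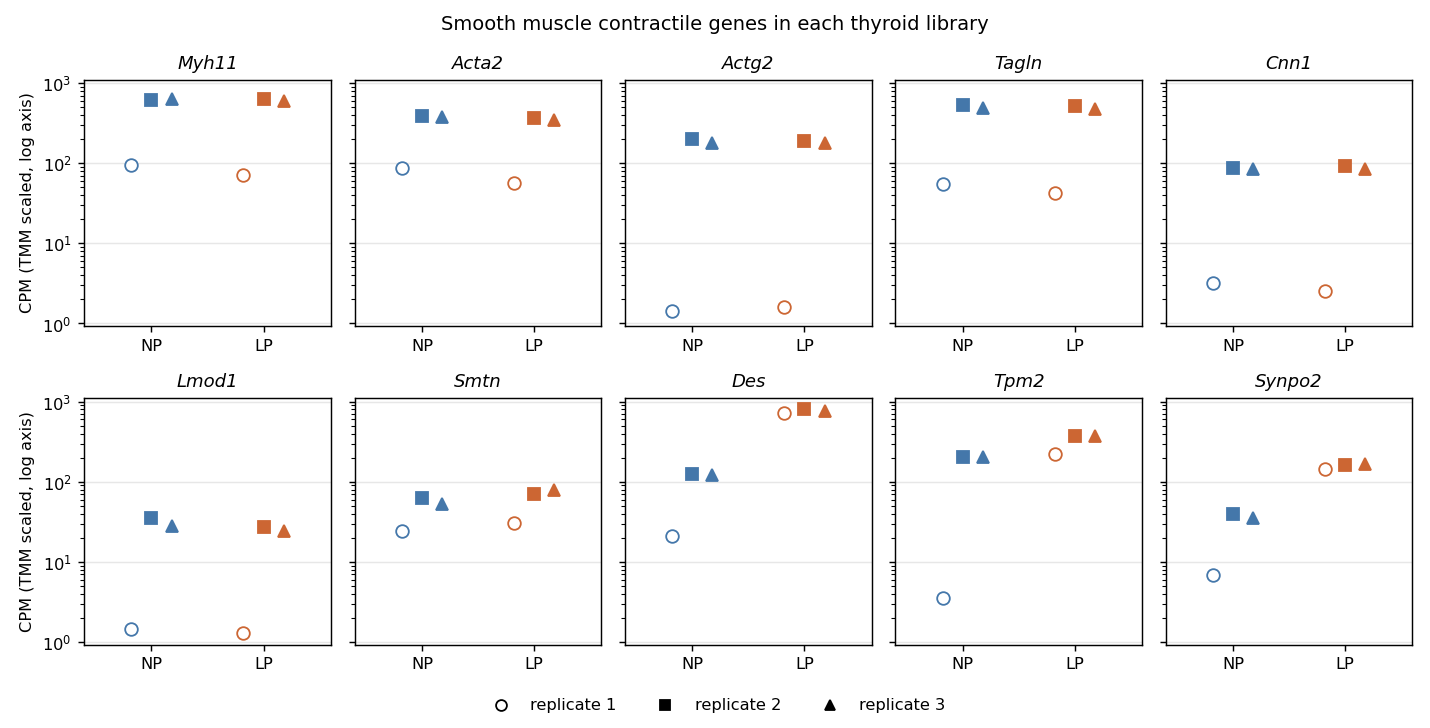
TMM-scaled CPM (log axis) of each of the 10 genes in the 6 libraries, with NP in blue and LP in orange, 1 point per library and no error bars. Replicate 1 (open circles) is the lowest point of its group in each panel, as for Actg2 at 1.43 CPM in NP, and in Des, Tpm2 and Synpo2 all LP points lie above all NP points.

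Myh11, the heavy chain of smooth muscle myosin and the motor of contraction, had 266, 1872 and 1897 reads in NP replicates 1, 2 and 3 and 220, 2110 and 1990 reads in LP. Replicate 1 was low in both groups, and the groups overlapped. Its level was 358 ± 371 CPM (SD, n = 2) in NP and 340 ± 382 CPM in LP, and the log2 fold change was -0.05 (SE 0.56).

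Acta2, the main actin of vascular smooth muscle, had 241, 1181 and 1131 reads in NP and 176, 1230 and 1172 reads in LP. The order was that of Myh11, with replicate 1 lowest in each group and overlapping groups. Actg2, the actin typical of visceral smooth muscle such as that of gut and uterus, had 4, 610 and 542 reads in NP and 5, 641 and 595 reads in LP. Replicate 1 was near the limit of the depth in both groups. The log2 fold change, LP over NP, was -0.14 (SE 0.47) for Acta2 and -0.05 (SE 0.69) for Actg2.

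The actin isoforms are nearly identical in their coding sequence, and reads can be split between them, so the Actg2 values are uncertain in this respect. Acta1, the skeletal muscle actin, had 0 reads in both replicate 1 libraries. In NP replicates 2 and 3 it had 166 and 144 reads, and in LP replicates 2 and 3 it had 186 and 185 reads. Its reads stood in a near-constant ratio to those of Actg2, at 26.6 to 31.1 Acta1 reads per 100 Actg2 reads in the 4 libraries. Tnnc2 (fast troponin C) and Neb (nebulin), 2 other skeletal muscle genes, did not show this replicate order. LP replicate 1 had 4554 reads of Tnnc2 and 3990 reads of Neb with 0 reads of Acta1. Casq1 and Pygm, also expressed in skeletal muscle, were at 0 in both replicate 1 libraries, as Acta1 was. Their counts were low elsewhere too, reaching at most 4 for Casq1 and 19 for Pygm in any library.

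Tagln (SM22), an actin-binding protein of smooth muscle, had 155, 1612 and 1493 reads in NP and 134, 1750 and 1587 reads in LP. Cnn1, calponin, which binds actin and restrains myosin's activity on it, had 9, 268 and 258 reads in NP and 8, 311 and 283 reads in LP. Lmod1, leiomodin, which starts new actin filaments, had 4, 107 and 84 reads in NP and 4, 92 and 82 reads in LP. All 3 thin filament genes thus had their lowest value in replicate 1 of both groups, and NP and LP overlapped in each. Their log2 fold changes, LP over NP, were -0.06 (SE 0.61), 0.02 (SE 0.59) and -0.28 (SE 0.58).

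Smtn, smoothelin, a cytoskeletal protein of contractile smooth muscle cells, differed least between replicates among the 7 genes. It had 68, 191 and 162 reads in NP and 96, 233 and 263 reads in LP, with NP replicates 2 and 3 above LP replicate 1. Its level was 41.2 ± 23.8 CPM (SD, n = 2) in NP and 52.3 ± 30.5 CPM in LP, and the log2 fold change was 0.34 (SE 0.27).

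Of the 7 genes, 0 had an adjusted p below 0.05 in edgeR's quasi-likelihood test of LP against NP, where 15.3% of the genes tested were called higher and 11.7% lower. The unadjusted p was below 0.05 for 0 of the 7 as well, both in edgeR and in DESeq2. Their SEs lay between 0.27 and 0.69 on the log2 scale, so a difference of that order between the groups lay within the spread. That fit treats replicates 2 and 3 as separate libraries, and with the pair summed in each group the SEs were 0.34 to 0.97, with 0 of the 7 called. When the replicate number entered as a block, the SEs fell to between 0.035 and 0.15. Smtn was then called higher (log2 fold change 0.34, SE 0.093) and Acta2 lower (-0.14, SE 0.044), where 17.5% of genes were called higher and 14.7% lower. P-values under the block rest largely on counting noise. Without LP replicate 1 Smtn was called higher (log2 fold change 0.63), and without NP replicate 1 it had 0.05 and was not called. With replicates 2 and 3 alone Smtn was called higher too (0.34, SE 0.10). The libraries within each group of that fit differed by no more than sampling noise. Myh11, Acta2, Actg2, Tagln, Cnn1 and Lmod1 lay below 0 without NP replicate 1 and above 0 without LP replicate 1, with 0 calls among them. Replicate 1 was low in both groups, so leaving out either one shifts the fold change by itself.

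Within replicate numbers, the LP over NP ratio of the 7 genes was near 1 in replicates 2 and 3. There the log2 ratio was -0.02 for Myh11 (counting SE 0.033), -0.09 for Acta2 (0.042), -0.04 for Actg2 (0.059), -0.04 for Tagln (0.036) and 0.03 for Cnn1 (0.086). Lmod1 gave -0.28 (counting SE 0.15) and Smtn 0.35 (0.10). In replicate 1, where far fewer reads were counted, Myh11 gave -0.44 (counting SE 0.13), Acta2 -0.61 (0.14), Tagln -0.37 (0.17) and Smtn 0.33 (0.23). Actg2, Cnn1 and Lmod1 had at most 9 reads in either replicate 1 library, and their counting SEs of 0.68 to 0.96 leave the ratio undetermined.

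**Figure D2:**
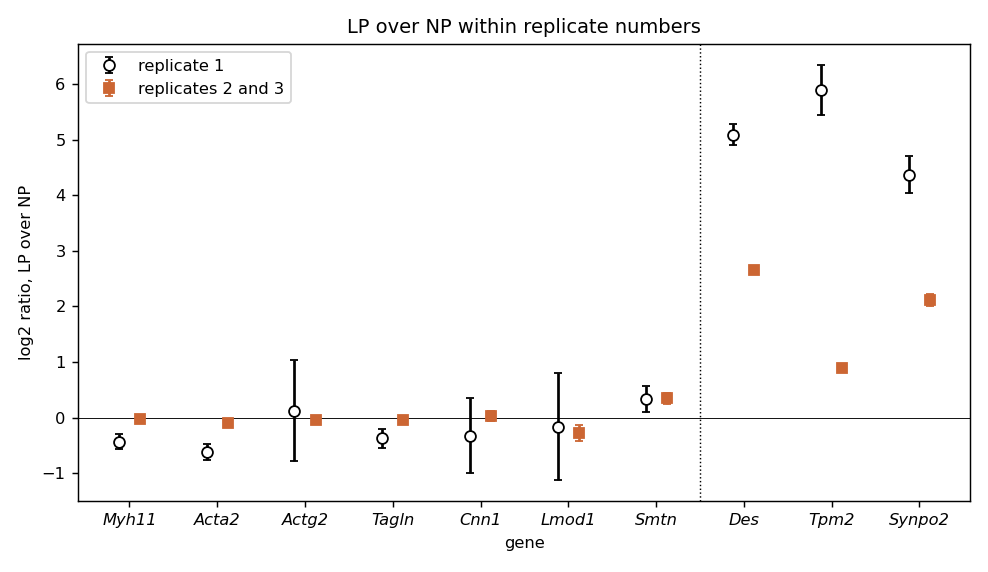
Log2 ratio of TMM-scaled CPM, LP over NP, within replicate 1 (open circles) and within the mean of replicates 2 and 3 (squares), with bars of 1 counting SE. The 7 genes left of the dotted line lie between -0.61 and 0.35, and Des, Tpm2 and Synpo2 lie above 0 in both, higher in replicate 1.

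Between replicates, the fold of replicates 2 and 3 over replicate 1 differed widely among the genes and far less between NP and LP for a given gene. It was 118 in NP and 104 in LP for Actg2, 25.4 and 32.5 for Cnn1, and 19.5 and 18.0 for Lmod1. Tagln gave 9.16 and 11.5, Myh11 6.49 and 8.64, and Acta2 4.39 and 6.32. Smtn had the lowest folds of the 7, at 2.37 and 2.39. The ratio therefore ran from below 3 for a smooth muscle adaptor to over 100 for the visceral actin, in the same order in NP and in LP.

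All 10 members were called lower in replicate 1 by edgeR's test over both groups, where 2.04% of genes tested were called lower and 0.699% higher. All 10 also lay below both other replicates in both groups, as 14.7% of genes did. The members were selected on this contrast, so nothing is read from these counts. Their log2 differences, replicate 1 minus replicates 2 and 3, ran from -6.90 (SE 0.17) for Actg2 to -0.32 (SE 0.063) for Des, with a median of -2.64 beside 0.01 over all genes tested. With no filter and in DESeq2, 7 of the 10 were called, and Des, Tpm2 and Synpo2 were not. In DESeq2 the Des difference was -1.15 in place of -0.32. The fit takes 1 replicate difference for both groups, which for these 3 genes describes neither. Des had -2.58 in NP and -0.13 in LP, Tpm2 -5.81 and -0.73, and Synpo2 -2.46 and -0.16. The fit also treats replicates 2 and 3 as separate libraries, and with the pair summed Actg2 had -6.91 (SE 0.16) and Des -0.42 (SE 0.042). Within each group, which has 1 replicate 1 library, 10 of 10 were called in NP alone and 0 of 10 in LP alone. The LP differences of the 7 smooth muscle genes were of similar size all the same, with -6.81 for Actg2 and -3.11 for Myh11.

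**Figure D3:**
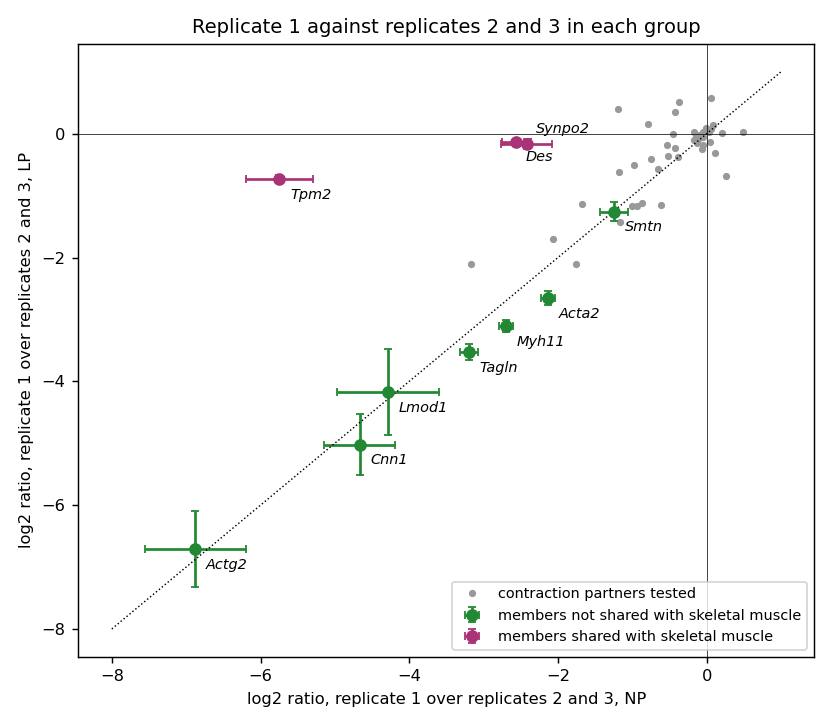
Log2 ratio of replicate 1 over the mean of replicates 2 and 3 in NP (horizontal) and in LP (vertical), with bars of 1 counting SE for the 10 members and points for the 44 contraction partners tested. The 7 genes not shared with skeletal muscle (green) lie near the dotted line of equal ratios, from -6.88 for Actg2 to -1.24 for Smtn in NP, while Des, Tpm2 and Synpo2 (purple) lie above it.

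Expressed as a difference in level, replicates 2 and 3 minus replicate 1, the 7 genes gave similar amounts in NP and in LP. Myh11 differed by 525 ± 11.7 CPM (counting SE) in NP and 540 ± 10.7 CPM in LP, and Tagln by 455 ± 10.2 and 454 ± 9.37 CPM. Acta2 differed by 294 ± 9.67 and 301 ± 8.44 CPM, Actg2 by 188 ± 5.63 and 182 ± 5.28 CPM, and Cnn1 by 83.3 ± 3.92 and 85.9 ± 3.74 CPM. For these 5 genes the amounts in NP and LP differed by less than 1 counting SE of the difference. Lmod1 gave 30.0 ± 2.38 CPM in NP and 24.6 ± 2.07 CPM in LP, and Smtn 33.7 ± 4.28 and 43.1 ± 4.57 CPM, which is within 2 counting SEs of the difference (3.15 and 6.26 CPM). Counting SEs do not include variation between rats.

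**Figure D4:**
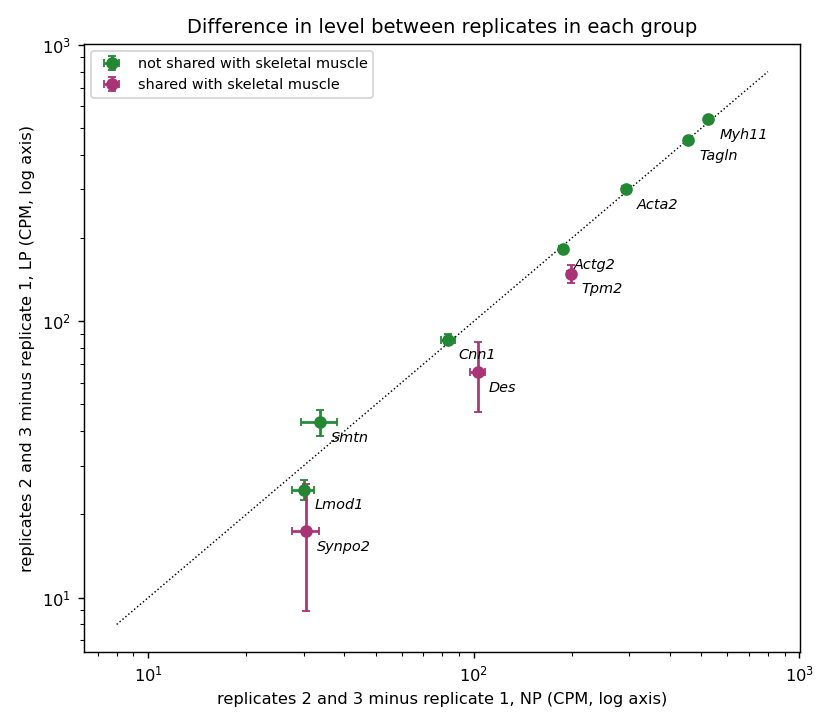
Difference in TMM-scaled CPM between the mean of replicates 2 and 3 and replicate 1, in NP (horizontal, log axis) and LP (vertical, log axis), with bars of 1 counting SE. Myh11, Tagln, Acta2, Actg2 and Cnn1 lie on the dotted line of equal amounts, from 83.3 CPM for Cnn1 to 525 CPM for Myh11 in NP, and Des, Tpm2 and Synpo2 lie below it.

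Of all genes tested, 25 (0.213%) were at least 8-fold higher in replicates 2 and 3 than in replicate 1 in both groups, with 0.5 reads added to each count, a threshold chosen after the values were seen. Actg2, Cnn1, Lmod1 and Tagln were among them, and Myh11 fell just outside in NP with 6.49-fold. The other 21 included Acta1, Igfbp1 (an insulin-like growth factor binding protein of decidua and liver) with 0, 127 and 109 reads in NP against 0, 151 and 151 in LP, and the homeobox gene Hoxa11 with 0, 23 and 27 reads in NP against 0, 21 and 18 in LP. They also included Wt1 and Emx2, regulators of urogenital development. The remaining genes were Cyp26a1, Mmp7, Irg1, Pygm, Tcf23, Nmur2, Col6a4, Kap, Plet1, P2rx2, Gys1, Ctxn1, Atg9b, Hoxd10, Acsbg1 and Moxd1. A list of 22 genes of the reproductive tract was written after these values were seen, so nothing is read from its counts. Of 14 tested, 10 lay below both other replicates in both groups (14.7% of all genes did) and 8 were called lower in replicate 1 (2.04%). The list had 18 members in the tables and a median log2 difference of -1.31. Its summed level was 319, 389 and 374 CPM in NP replicates 1, 2 and 3 and 313, 389 and 369 CPM in LP replicates 1, 2 and 3, with Hoxa11 and Hoxd11 at 0 in both replicate 1 libraries. Wnt4 made the largest contribution to that sum, with 639 to 693 reads in each library and no such order. The part of these genes in the replicate difference was not tested.

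Desmin (Des), the intermediate filament protein of all muscle types, was higher in LP in every library. It had 58, 382 and 369 reads in NP and 2236, 2685 and 2570 reads in LP, with no overlap of the groups. Its level was 72.2 ± 72.7 CPM (SD, n = 2) in NP and 750 ± 46.3 CPM in LP, and the log2 fold change was 3.08 (SE 0.32).

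Synpo2, synaptopodin 2 or myopodin, an actin-bundling protein of the Z-disc and of smooth muscle dense bodies, had 19, 120 and 107 reads in NP and 452, 539 and 551 reads in LP. NP replicate 1 was the lowest library and all LP libraries were above all NP libraries. Its level was 22.1 ± 21.6 CPM in NP and 154 ± 12.3 CPM in LP (SD, n = 2), a log2 fold change of 2.50 (SE 0.23).

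Tpm2, beta-tropomyosin, which lies along the actin filament and gates myosin's access to it, had 10, 613 and 615 reads in NP and 702, 1248 and 1263 reads in LP. The 3 LP libraries lay above the 3 NP libraries, but LP replicate 1 was only slightly above NP replicates 2 and 3. Its level was 103 ± 140 CPM in NP and 299 ± 105 CPM in LP (SD, n = 2), with a log2 fold change of 1.24 (SE 0.50).

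In edgeR's test Des and Synpo2 were called higher in LP and Tpm2 was not. That fit treats replicates 2 and 3 as separate libraries. With the pair summed the calls were the same, with SEs of 0.48 for Des, 0.31 for Synpo2 and 0.75 for Tpm2. With the replicate block Tpm2 was called higher too (log2 fold change 1.26, SE 0.048). It was called without NP replicate 1 (0.68) and without LP replicate 1 (1.43), but replicate 1 was low in both groups. With replicates 2 and 3 alone it was called higher too (0.88, SE 0.048). The libraries within each group of that fit differed by no more than sampling noise. Leaving out the NP replicate 1 library by itself lowers the fold change, and leaving out the LP one raises it. Every LP library lay above every NP library for these 3 members and for 21.2% of all genes tested, and since the members were chosen on this contrast nothing is read from the counts.

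The fold change of the 3 genes depended on the replicate number, while the difference in level depended on it less. Des was 34.2-fold higher in replicate 1 and 6.33-fold higher in replicates 2 and 3, or 696 ± 15.4 CPM (counting SE) and 659 ± 11.7 CPM. Synpo2 was 20.7-fold and 4.34-fold higher, or 138 ± 6.99 and 125 ± 5.50 CPM. Tpm2 was 59.8-fold and 1.85-fold higher, or 221 ± 8.57 and 172 ± 9.43 CPM. Ratios in NP replicate 1 rest on 58, 19 and 10 reads of Des, Synpo2 and Tpm2.

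Conversely, the replicate difference of these genes was large in NP and small in LP when given as a ratio. Replicates 2 and 3 were above replicate 1 by 5.89-fold in NP and 1.09-fold in LP for Des, by 5.35-fold and 1.12-fold for Synpo2, and by 53.7-fold and 1.66-fold for Tpm2. As a difference in level, the amounts were 103 ± 5.27 CPM in NP and 65.5 ± 18.6 CPM in LP for Des, 30.5 ± 2.93 and 17.4 ± 8.40 CPM for Synpo2, and 198 ± 5.88 and 149 ± 11.3 CPM for Tpm2. The LP amount minus the NP amount was -37.3 CPM (counting SE 19.3) for Des, -13.2 CPM (8.90) for Synpo2 and -49.7 CPM (12.7) for Tpm2. Whether these differ between the groups beyond variation among rats was not tested, since each group has 1 replicate 1 library.

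Skeletal muscle markers moved with the LP values of Des, Synpo2 and Tpm2. Of 17 listed markers, 13 were in the tables and 11 were tested. Of these, 10 were higher and 0 lower in LP, as 15.3% and 11.7% of all genes tested were. The markers had a median log2 fold change of 7.63 beside -0.01 over all genes. Their summed level was 30.8, 78.9 and 78.1 CPM in NP replicates 1, 2 and 3, with Acta1 giving 0, 54.6 and 47.5 CPM of it. In LP it was 4583, 4370 and 4361 CPM. Myh1, a fast skeletal myosin, was at 0 in all NP libraries and had 119, 105 and 109 reads in LP. The list's part in the values of Des, Synpo2 and Tpm2 was not tested.

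The skeletal muscle list did not share the replicate order of the smooth muscle genes. In LP replicate 1 it was no lower than in LP replicates 2 and 3. Of its 11 tested genes 1, Acta1, was called lower in replicate 1 and 1, Tnnc2, higher (log2 difference 0.10, SE 0.027). Over all genes tested, 2.04% were called lower in replicate 1 and 0.699% higher. The 7 smooth muscle genes, in turn, had 206 CPM in the library with 4583 CPM of skeletal muscle markers. Airway epithelium markers were low throughout, with a summed level of 2.87 to 6.26 CPM in NP and 22.0 to 23.1 CPM in LP. All 3 tested were called higher in LP, beside 15.3% of all genes tested. With replicates 2 and 3 alone 1 of them, Scgb1a1, was not called (log2 fold change 0.99). Cartilage markers had 0 genes past the filter.

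Among other cells of the vessel wall, pericytes and endothelium differed little between replicates. The 6 tested pericyte markers had a summed level of 337, 364 and 359 CPM in NP replicates 1, 2 and 3. In LP it was 287, 333 and 321 CPM. Of the 6, 1, Mcam, was called lower in replicate 1 (log2 difference -0.39, SE 0.079), beside 2.04% of all genes tested. Between LP and NP 1, Rgs5, was lower in LP (log2 fold change -0.40), beside 11.7% of all genes tested. Of 7 endothelial markers 0 were called in either direction between replicates, where 2.04% of all genes tested were called lower and 0.699% higher. Their summed level was 850 to 879 CPM in NP and 774 to 780 CPM in LP. Of these 7, 4 were lower and 1 higher in LP, beside 11.7% and 15.3% of all genes tested. Tek, an angiopoietin receptor (log2 fold change -0.49), and Flt1, a VEGF receptor (-0.45), were lowest and Eng (0.26) was higher. Fibroblast markers were lower in replicate 1 for 4 of 7 tested, beside 2.04% of all genes tested. Their summed level was 1410, 2347 and 2308 CPM in NP replicates 1, 2 and 3 and 1687, 2658 and 2563 CPM in LP, with the collagens Col1a1 (log2 difference -1.22, SE 0.035) and Col3a1 (-0.61, SE 0.026) and with Pdgfra (-0.79, SE 0.12) and Dcn (-0.19, SE 0.047). Thyroid follicular markers were higher in replicate 1 for 4 of 8, beside 0.699% of all genes tested, by at most 0.16 on the log2 scale.

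**Figure D5:**
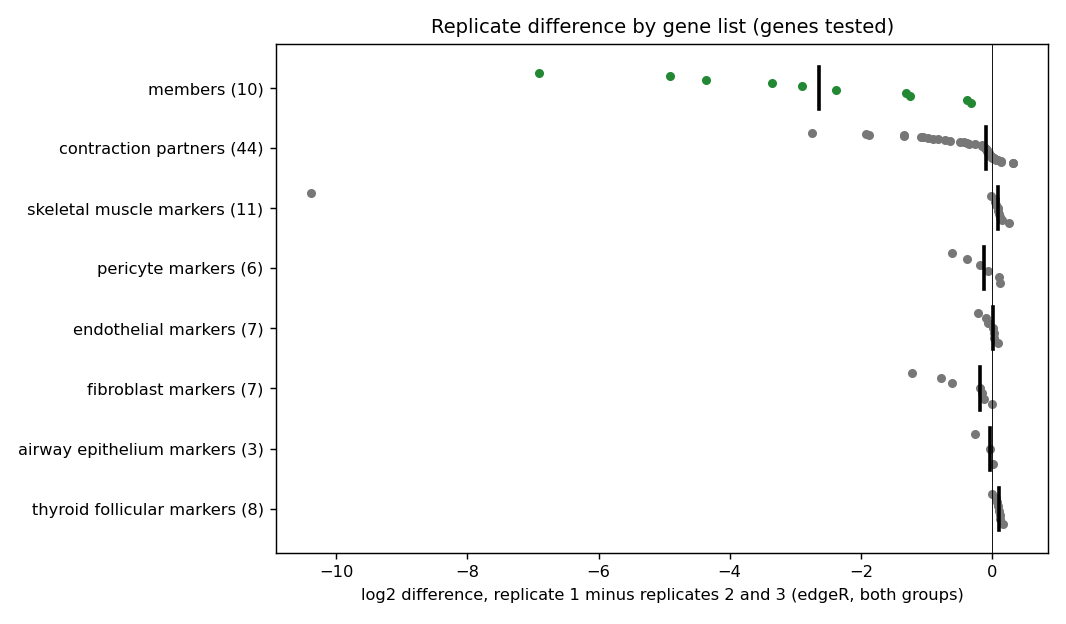
Log2 difference, replicate 1 minus replicates 2 and 3 of both groups (edgeR), with 1 point per tested gene, 1 row per list and a black bar at each list's median. Members lie between -6.90 and -0.32 and most other lists lie near 0, with Acta1 at -10.38 in the skeletal muscle row, a value that depends on how its 0 reads in replicate 1 are treated.

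Other genes of smooth muscle contraction were less uniform than the members. Of 52 contraction partners listed, 48 were in the tables and 44 were tested. Between replicates, 14 were called lower and 0 higher in replicate 1, with a median log2 difference of -0.10. Over all genes tested, 2.04% were called lower and 0.699% higher. By role, 7 of 17 genes of actin binding and adhesion, 5 of 11 genes of the myosin light chain and its regulation, 2 of 9 genes of calcium handling, channels and receptors and 0 of 7 transcriptional regulators were lower.

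The partners named next were chosen after their values were seen, as those farthest below 0 within their roles. Kcnmb1, the smooth muscle subunit of the BK potassium channel, had a log2 difference of -2.75 (SE 0.56) on 1 to 18 reads per library. Myl9, the regulatory light chain of smooth muscle myosin, had 148, 543 and 554 reads in NP against 118, 606 and 495 in LP, a log2 difference of -1.93 (SE 0.083). Mylk, the kinase that phosphorylates it, had 124, 587 and 551 reads in NP against 156, 551 and 547 in LP (-1.88, SE 0.079). The motor's light chain and its kinase thus had replicate 1 as the lowest library of each group, as Myh11 did. Tpm1 (-1.34, SE 0.062), the actin crosslinker Flna (-1.09, SE 0.042) and caldesmon, Cald1 (-1.05, SE 0.098), had smaller differences.

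Srf, the factor that binds CArG boxes, did not pass the test between replicates, with a log2 difference of -0.05 and 266, 315 and 283 reads in NP against 282, 308 and 326 in LP. Myocd, its partner in smooth muscle, was below the filter, with 2, 8 and 3 reads in NP against 2, 13 and 9 in LP. At this depth no difference in Myocd could be assessed.

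Between LP and NP, 10 of the 44 partners were higher and 9 lower, a median log2 fold change of -0.06. Over all genes tested, 15.3% were called higher and 11.7% lower. Hspb6, a small heat shock protein of muscle, rose the most with a log2 fold change of 3.49 (SE 0.089, adjusted p = 3.65e-15 in edgeR), followed by the transcription factor Mef2c with 2.22 (SE 0.085, adjusted p = 1.21e-12). The lowest were the endothelin receptor Ednrb with -0.78 (SE 0.16, adjusted p = 0.00110) and Rock1, a kinase that keeps the light chain phosphorylated, with -0.45 (SE 0.092, adjusted p = 0.00128). These values treat replicates 2 and 3 as separate libraries. With the pair summed, edgeR's adjusted p was 1.23e-09 for Hspb6, 1.31e-08 for Mef2c, 0.00529 for Ednrb and 0.00412 for Rock1. Hspb6 and Mef2c are expressed in skeletal muscle as well, and the skeletal muscle markers moved with them, whose part in their values was not tested. By role, 3 of 17 genes of actin binding were higher and 6 lower, 2 of 11 of the light chain group were higher and 2 lower, 1 of 9 of the calcium and receptor group was higher and 1 lower, and 4 of 7 transcriptional regulators were higher and 0 lower.

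The paralogs of the members were compared in the same way. Of 18 tested, 7 were higher and 4 lower in LP, with a median log2 fold change of 0.11, and between replicates 4 were lower and 0 higher in replicate 1. Over all genes tested, 15.3% were higher and 11.7% lower in LP, and 2.04% lower and 0.699% higher in replicate 1. Lmod3, the leiomodin of skeletal muscle, had 0 reads in each NP library and 176, 143 and 167 reads in LP, against no call for Lmod1. The smoothelin-like Smtnl1 (log2 fold change 4.09) and Smtnl2 (5.19) were higher, as were Synpo2l (4.85) and Synpo (1.91) of the Synpo2 family. Synm, synemin, an intermediate filament protein that pairs with desmin, was higher (1.52), and vimentin, Vim, which also pairs with it, had -0.19 and was not called. Among tropomyosins Tpm3 was higher (0.49), Tpm4 lower (-0.18), and Tpm1 (0.39) was not called without the replicate block and was called higher with it.

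Non-muscle relatives of the smooth muscle genes were lower in LP or not called. Actb, the cytoplasmic beta-actin (log2 fold change -0.24), Cnn3, a calponin found outside smooth muscle (-0.40), and Tagln2 (-0.15) were lower. The non-muscle myosin heavy chains Myh10 (-0.09) and Myh14 (0.04) were not called, and Myh10 had 554 to 611 reads in NP and 564 to 693 in LP, with no replicate order like that of Myh11. Vim had replicate 1 as the lowest library of each group, as Myh11 did, though by a smaller ratio. It had 483, 821 and 818 reads in NP against 467, 819 and 772 in LP.

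The genes with profiles most like those of the members were sought among 10907 genes with a mean of at least 5 CPM, by the root mean square difference of centered log2 CPM over the 6 libraries. The reference was the median profile of each set, from which the 7 smooth muscle genes themselves lay 0 to 1.51 and the 3 shared genes 0.174 to 0.995. Closeness to it is therefore not closeness to every member. For the 7 smooth muscle genes the nearest were Wfikkn2 (0.215), Osr2 (0.267), Tcf23 (0.393), P2rx2 (0.418) and Ctxn1 (0.424). Wfikkn2 had 6, 60 and 51 reads in NP against 6, 71 and 66 in LP. For Des, Tpm2 and Synpo2 the nearest were Pdlim3 (0.0939), Fxyd6 (0.300), Jph2 (0.352), Dmd (0.405) and Fhod3 (0.435). Pdlim3, an actinin-binding LIM protein of muscle, had 9, 85 and 71 reads in NP against 349, 409 and 388 in LP, low in NP replicate 1 and high in every LP library. Jph2, Dmd and Fhod3 had at most 41 reads in any NP library, and Dmd, dystrophin, had 2, 19 and 15.

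Overlap with other genes limits 3 of the members, since Lmod1, Des and Synpo2 overlap another gene locus in RefSeq (GRCr8), and whether the counts used strand is not given in the sources used here.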

How the data were processed

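Thyroid RNA from 3 NP and 3 LP rats was reverse transcribed, prepared with the TruSeq RNA kit and sequenced on an Illumina HiSeq instrument. Reads were mapped by the authors to the rat genome rn5 with TopHat 1.4.0 and counted on Ensembl gene models with HTSeq, and the deposited values are raw read counts per gene, without normalization. The submitters' processing notes also name DESeq, which was not used here.

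Counts were analyzed in R 4.3.3 with edgeR 4.0.16 (quasi-likelihood test, TMM normalization, filterByExpr with a minimum count of 10, Benjamini-Hochberg adjustment over the 11738 genes tested), limma 3.58.1 and DESeq2 1.42.0. The comparisons were LP against NP, and replicate 1 against replicates 2 and 3 with group as covariate. A gene was called at an adjusted p below 0.05. Each SE is the size of the log2 fold change over the root of the F statistic. Counting SEs assume Poisson error, and 0.5 reads were added for ratios within replicate numbers. Levels are not divided by gene length and are not compared between genes. The steps were tested on simulated counts.

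Pairing was checked by correlating deviations of log2 CPM from the group means: same-numbered libraries gave 0.493, 0.223 and 0.192 for replicates 1, 2 and 3, and replicate 2 of one group with replicate 3 of the other 0.216. All 3 exceeded 0.1, so values with the replicate number as a block are given where they change a call. Deviations sum to 0 within a group, so a shared deviation of replicate 1 by itself raises the values for replicates 2 and 3. Those values therefore do not show that replicates 2 and 3 are paired by number. The block lowered the coefficient of variation from 0.0645 to 0.0131. The labels name no link between same-numbered animals, nor separate litters or cultures, so p-values measure the spread between these libraries.

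The members and lists were chosen with earlier results of these data known. Named genes are the 10 members, the paralogs, of every other list up to 2 called genes at each end of the LP against NP fold changes, and the 5 genes most like each set of members in profile. Genes named outside this rule, such as those of a count of 5 or fewer, were chosen after their values were seen. Alternatives were the replicate block, each library left out, no filter, DESeq2 and its size factors, a normalization without muscle genes, replicates 2 and 3 summed, a fold change above 2, and, added after the counts were examined, replicates 2 and 3 alone. Promoter windows come from RefSeq (GRCr8), and no coordinates of the rn5 build are given. Protein sequences were not used here.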

Additional observations from a re-analysis of the deposited data

How the results depend on the processing

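Entering the replicate number as a block changed the calls of 3 members. Of the 7 genes not shared with skeletal muscle, 0 were called higher in LP and 0 lower without the block, and 1 higher (Smtn) and 1 lower (Acta2) with it, also when replicates 2 and 3 were summed. With replicates 2 and 3 alone 1 was higher, again Smtn (log2 fold change 0.34, SE 0.10), in a fit without either replicate 1 library. Leaving out each library in turn gave 0 to 1 higher and 0 to 0 lower. The 1 was Smtn without LP replicate 1, a fit that keeps the low NP replicate 1 and so raises the fold change. Of Des, Tpm2 and Synpo2, 2 were higher in LP, 3 with the block, and 2 to 3 with each library left out. Acta2, called lower with the block (-0.14), lay above 0 without LP replicate 1 (0.32), without NP replicate 2 (0.15) and without NP replicate 3 (0.11), with no call there. Over all genes, 1794 were higher and 1374 lower in LP, 575 and 63 with a fold change above 2, 1498 to 1685 and 1088 to 1273 with each library left out, and 703 lower in DESeq2. For replicate 1 against replicates 2 and 3, all 10 members were lower, 10 within NP alone, 7 with no filter, 7 in DESeq2 (Des, Tpm2 and Synpo2 lost in both) and 0 within LP alone. Over all genes, 239 were lower in replicate 1, against 101 with no filter, 102 in DESeq2, 47 within NP alone and 0 within LP alone, and 82 were higher, against 11, 5, 5 and 0. Within 1 group the test has fewer libraries; beyond that the cause of these changes was not tested. Genes with under 10 reads in replicate 1 (Actg2, Cnn1, Lmod1) have imprecise ratios at this depth.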
